A study of Mus musculus with 6 samples.

Results

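The cells described here were *Dcn*-positive stromal cells of the mouse mammary gland. In each, at least 3 of the 5 markers *Il33*, *Cyp7b1*, *Fgf7*, *Cpxm1* and *Tmem45a* were detected. A cell was a member if it had at least 200 genes, under 10% mitochondrial UMIs, 2 or more UMIs (unique molecular identifiers, each standing for 1 captured transcript) of *Dcn*, none of *Epcam*, *Ptprc* or *Pecam1*, and a UMI of at least 3 of the 5 markers. Cells with more than 2 of the 5 matrix fibroblast markers *Crabp1*, *Mmp11*, *Cthrc1*, *Spon1* and *Lrrc15*, or more than 2 of the 6 adventitial markers *Pi16*, *Dpt*, *Prg4*, *Ptgis*, *Fndc1* and *Akr1c18*, were left out. Of 23835 barcodes, 22244 passed the quality limits, 5715 were *Dcn*-positive by these limits and 855 were members. Of the 1287 *Dcn*-positive cells with 3 or more markers, 85 were left out for matrix markers, 312 for adventitial markers and 35 for both. The remaining 4860 *Dcn*-positive cells serve as the comparison and are called the other *Dcn*-positive cells, and they include the cells left out.

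Fibroblasts of the mammary stroma supply the epithelium with growth factors and matrix and signal to immune cells. *Fgf7* encodes keratinocyte growth factor, which is made by mesenchymal cells and acts on an FGF receptor form of epithelial cells, and *Il33* encodes a nuclear alarmin cytokine that is released from damaged cells and signals through the receptor encoded by *Il1rl1*. *Cyp7b1* encodes a hydroxylase that inactivates oxysterols such as 25-hydroxycholesterol, *Cpxm1* encodes a secreted protein of the carboxypeptidase family, and *Tmem45a* encodes a transmembrane protein.

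Single cell RNA sequencing was performed on female C3(1)-Tag mice of the FVB/NJ background, which carry the SV40 large T antigen under the C3(1) promoter, and all 3 disease states carry this transgene, so no group without it was present. Whole mammary glands were taken at 5 weeks of age (Prepuberty) and at 14 weeks (DCIS, ductal carcinoma in situ), and palpable tumours after 18 weeks (Tumor), with 2 libraries per state. State, age and tissue change together and cannot be told apart. The labels do not state which animal each library of a state came from. The paper of the study speaks of technical replicates in one place and of specimens in another, so the p-values measure only the spread between these libraries, which may be technical. The methods also give another dissociation for tumours than for glands and a later library kit for Tumor 2, neither of which can be told apart from the Tumor state or that library.

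Members were found in each of the 6 libraries, but they were few in the tumours. They numbered 273 and 289 in the Prepuberty libraries, 88 and 185 in the DCIS libraries, and 8 and 12 in the Tumor libraries. As a share of the *Dcn*-positive cells they made up 13.6% (95% exact binomial interval 12.1 to 15.2) and 17.4% (15.6 to 19.3) in Prepuberty, 16.1% (13.1 to 19.5) and 15.6% (13.6 to 17.8) in DCIS, and 8.51% (3.75 to 16.1) and 5.41% (2.82 to 9.25) in Tumor. These intervals cover counting error only. The shares of the Prepuberty and DCIS libraries overlapped, and both Tumor shares lay below all 4 gland shares. With 2 libraries against 2, an exact permutation test cannot give a two-sided p under 0.33, so that test could not reach the threshold, and no other test of the shares was run. The *Dcn*-positive cells were themselves 45.7% and 46.1% of the kept cells in Prepuberty, 17.2% and 29.6% in DCIS, and 2.10% and 8.52% in Tumor.

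Depth differed between the states and between members and other cells, and the share of members changed when depth was made equal. The median member had 12528 and 10983 UMIs in Prepuberty, 8498 and 8744 in DCIS, and 7532 and 16914 in Tumor. The median other *Dcn*-positive cell had 10184 and 9320 UMIs in Prepuberty, 7581 and 6462 in DCIS, and 10426 and 13365 in Tumor. Each cell was then thinned to 4000 UMIs before the rule was applied, and shallower cells were left out, which kept 3354 of 4388 and 2517 of 3603 cells in Prepuberty, 2466 of 3168 and 2954 of 4003 in DCIS, and 3735 of 4476 and 2187 of 2606 in Tumor. The thinned shares were 6.51% and 10.2% in Prepuberty, 15.1% and 12.1% in DCIS, and 10.2% and 1.42% in Tumor. The thinned values of both DCIS libraries lay above those of both Prepuberty libraries, an order that the unthinned shares did not have, and the thinned share of Tumor 1 lay within the range of the glands. The genes that exclude a cell were thinned too. In Tumor 1 the *Dcn*-positive cells went from 94 to 108 and the members from 8 to 11, with an exact binomial interval of 5.20 to 17.5 for the thinned share.

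**Figure D1:**
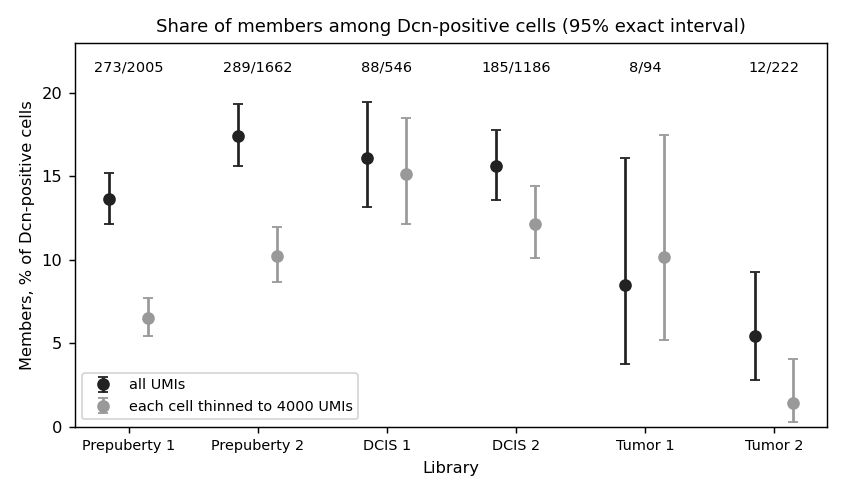
Share of members among *Dcn*-positive cells in each library, in percent, as counted (with 95% exact binomial intervals) and after thinning each cell to 4000 UMIs. As counted, the 2 Tumor libraries (8.51% and 5.41%) lie below the 4 gland libraries (13.6% to 17.4%); after thinning, the DCIS libraries (15.1% and 12.1%) lie above the Prepuberty libraries (6.51% and 10.2%).

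The 5 markers seldom appeared all together. All 5 were detected in 70 members (8.19%), and the commonest set, in 107 members (12.5%), was *Cpxm1*, *Cyp7b1*, *Tmem45a* and *Fgf7* without *Il33*. A UMI of *Tmem45a* was found in 677 members, of *Cpxm1* in 655, of *Fgf7* in 652, of *Cyp7b1* in 547 and of *Il33* in 428 (50.1%). The share of members with a UMI of *Il33* was 35.2% and 48.4% in the Prepuberty libraries, 75% and 60% in the DCIS libraries, and 100% and 58.3% in the Tumor libraries. *Il33* thus gives the cells their name but was not detected in about as many members as it was. For comparison, among 944 cells with a UMI of *Ptprc* and none of *Dcn*, leukocytes in which these genes should be low, the markers were found in 0.742% (*Cpxm1*), 0.953% (*Il33*), 0.530% (*Cyp7b1*), 0.212% (*Tmem45a*) and 0.106% (*Fgf7*). These leukocytes had a median of 4890 UMIs against 10843 in members, and 0 of 944 held 3 markers, which allows up to 3 of 944.

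The levels of the markers chose the members, and their values are a description only. Levels are given as CPM, the UMIs of a gene per 1000000 UMIs summed over the cells of a class in a library. *Il33* (GRCm38 chromosome 19, 29925114 to 29960718) had 172 and 293 CPM in Prepuberty, 672 and 617 in DCIS and 432 and 62.3 in Tumor in members, against 79.2 and 88.2 in Prepuberty, 448 and 188 in DCIS and 333 and 46 in Tumor in the other *Dcn*-positive cells. Both DCIS libraries lay above both Prepuberty libraries in either class. *Cpxm1* (chromosome 2, 130390775 to 130397574) had 235 and 256 CPM in Prepuberty, 485 and 537 in DCIS and 342 and 107 in Tumor in members. The other *Dcn*-positive cells of DCIS 1 exceeded the members of that library in *Cpxm1*, at 577 against 485 CPM.

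*Fgf7* (chromosome 2, 126034658 to 126091185) had 203 and 263 CPM in Prepuberty, 244 and 199 in DCIS and 126 and 17.3 in Tumor in members, and 74.7 and 145 in Prepuberty, 85.6 and 68.4 in DCIS and 46.2 and 13.8 in Tumor in the other *Dcn*-positive cells. The *Fgf7* level of members overlapped between Prepuberty and DCIS and was lowest in Tumor. *Cyp7b1* (chromosome 3, 18071950 to 18243338) had 153 and 145 CPM in Prepuberty, 113 and 201 in DCIS and 90 and 65.7 in Tumor in members, against 31 and 24.2 in Prepuberty, 34.8 and 53.4 in DCIS and 14.6 and 33.5 in Tumor in the other cells. *Tmem45a* (chromosome 16, 56805161 to 56886166) had 120.5 and 211 CPM in Prepuberty, 208 and 225 in DCIS and 108 and 65.7 in Tumor in members. The other cells had 40.1 and 74.2 CPM of it in Prepuberty, 97.3 and 89.0 in DCIS and 171 and 58.9 in Tumor. In Tumor 1 the other cells thus exceeded the members in *Tmem45a*. In the members of the gland libraries *Cyp7b1* overlapped between the states, and *Tmem45a* did so too.

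Cells just inside and just outside the limit were alike in some markers and apart in others. In Prepuberty 1, the 175 members with exactly 3 markers had 206 CPM of *Cpxm1* and 126 of *Il33*, and the 307 cells with 2 markers had 159 and 135. In DCIS 2, the 117 members with 3 markers had 164 CPM of *Cyp7b1* and 155 of *Fgf7*, against 99.8 of each in the 212 cells with 2 markers. The median depth just inside the limit was above that just outside it in the gland libraries, at 12463 against 11386 UMIs in Prepuberty 1 and 8154 against 6242 in DCIS 2.

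The state contrast of the markers can be asked over all *Dcn*-positive cells, where the 3-marker limit plays no part. There, *Il33* differed by a log2 of 2.01 ± 0.37 (SE) between DCIS and Prepuberty, *Cpxm1* by 2.22 ± 0.40, *Tmem45a* by 0.84 ± 0.34, *Cyp7b1* by 0.61 ± 0.32 and *Fgf7* by -0.10 ± 0.33. None of these passed the threshold, with edgeR adjusted p of 0.226 for *Il33* and *Cpxm1*, 0.369 for *Tmem45a*, 0.436 for *Cyp7b1* and 0.909 for *Fgf7*.

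**Figure D2:**
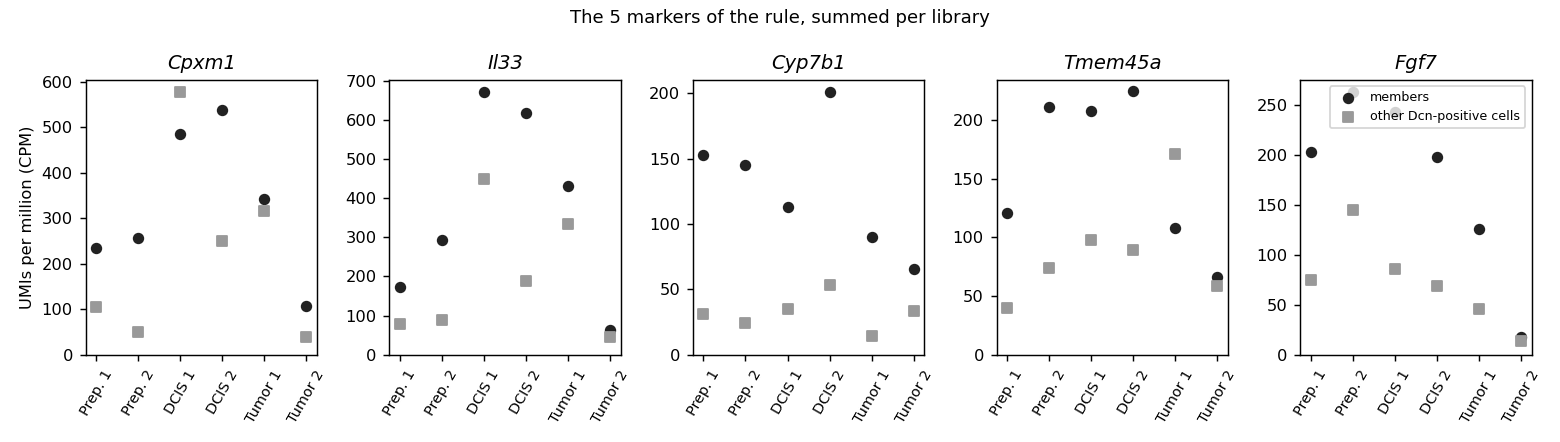
Level of the 5 markers in members and in the other *Dcn*-positive cells of each library, in CPM on an axis that starts at 0. The members chosen by these genes lie above the other cells in most libraries; *Il33* in members is 172 and 293 CPM in Prepuberty and 672 and 617 in DCIS.

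The fibroblast label was checked against markers that the rule did not use. *Col1a1* and *Col1a2*, the chains of type I collagen, the fibroblast receptor gene *Pdgfra* and the proteoglycan gene *Lum* were detected in the members of all 6 libraries. *Pdgfra* had 525 and 374 CPM in Prepuberty, 209 and 318 in DCIS and 108 and 225 in Tumor, and *Lum* had 484 and 213 CPM in Prepuberty, 877 and 664 in DCIS and 1098 and 76.1 in Tumor. The lowest *Lum* was that of Tumor 2, and *Col1a1* reached 5489 CPM in Tumor 1 against at most 799 in the other 5 libraries.

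Markers of other cell types were summed in members by library. The 15 epithelial markers summed to 134 to 252 CPM, the 10 endothelial markers to 131 to 592, the 8 adipocyte markers to 3.46 to 375 and the 9 pericyte and smooth muscle markers to 12.6 to 50.3. The 8 Schwann cell markers summed to 0 to 68.8, the 8 T cell markers to 0.846 to 142 and the 6 B cell markers to 2.38 to 63.8. The 11 macrophage markers summed to 25.4 and 28.6 CPM in Prepuberty, 79.6 and 69.4 in DCIS, and 162 and 6.92 in Tumor, so this sum was higher in DCIS than in Prepuberty. In the other *Dcn*-positive cells the macrophage sum was 52.7 and 26.4 CPM in Prepuberty and 127 and 110 in DCIS. *Ptprc* was at 0 in all members by the rule, *Adgre1*, which encodes a macrophage surface protein, was at 0 in all 6 libraries, and *Cd68* supplied 15 and 14.3 CPM of the sum in Prepuberty and 31.1 and 46.1 in DCIS. UMIs of the T antigen were found in 1 of 88 members of DCIS 1, 2 of 8 of Tumor 1 and 7 of 12 of Tumor 2, and in 0 of the members of the other 3 libraries. In the same libraries, 1 of 458, 10 of 86 and 88 of 210 other *Dcn*-positive cells held them. Of all kept cells, 57.2% of Tumor 1 and 45.7% of Tumor 2 held them. Without cells that held T antigen UMIs, members made up 7.32% of the *Dcn*-positive cells of Tumor 1 and 3.94% of those of Tumor 2. Between 9 and 39 cell barcodes were shared by each pair of libraries. The part of the marker sums and of shared barcodes in the results was not tested, and counts of genes without cells that held T antigen UMIs are given with the comparisons.

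Beyond the markers of the rule, few genes set the members apart from the other *Dcn*-positive cells of the same library. Because both classes were cut from the same cells by expressed genes, the ratios are a description with no test. Each ratio was taken after 1 CPM was added to both values, which brings the ratios of low genes closer to 0 on the log2 scale. With at least 20 CPM on average in the higher class, 0 of 5305 genes (0.0%) were 2-fold higher and 0 (0.0%) 2-fold lower in members in all 5 libraries with 10 or more members. Restricted to the 4 gland libraries, a choice made after the data were seen, 0 of 4719 genes (0.0%) were 2-fold higher and 4 (0.0848%) were 2-fold lower, and at 1.5-fold 7 (0.148%) were higher and 21 (0.445%) lower. With members required to hold 4 or more markers, 4 genes (0.0838%) were 2-fold higher and 10 (0.209%) lower in the 4 libraries that kept enough cells, and with cells thinned to 4000 UMIs 1 gene (0.0194%), *Cxcl12*, was higher and 7 (0.136%) were lower.

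Of the 7 genes that were higher, *Cxcl12*, *Fgf10* and *Fst* encode secreted proteins. *Cxcl12*, a chemokine that stromal cells make and that retains cells bearing CXCR4, had 63.2 and 493 CPM in Prepuberty and 182 and 279 in DCIS members, against 31.4 and 147 in Prepuberty and 76.9 and 94.8 in DCIS in the other cells, a mean log2 ratio of 1.38 with a range of 0.99 to 1.74. Members were higher in each gland library, but in Tumor 2 the order was the opposite, at 34.6 against 83.3 CPM. *Fgf10*, like *Fgf7* a mesenchymal ligand of an epithelial FGF receptor and required for the mammary bud, had 48 and 14 CPM in Prepuberty and 13.7 and 14.4 in DCIS members, against 27.1 and 4.54 in Prepuberty and 4.62 and 4.86 in DCIS. *Fst*, which encodes the activin antagonist follistatin, had 162 and 224 CPM in Prepuberty and 159 and 154 in DCIS members, against 87.4 and 129 in Prepuberty and 81.8 and 82.4 in DCIS. The mean log2 ratio was 1.25 for *Fgf10* and 0.88 for *Fst*, and *Steap4* (1.20), *Serpinb1a* (1.14), *Steap1* (0.98) and *Slc15a3* (0.90) completed the set. *Steap4* and *Steap1* belong to a family of metalloreductases, and *Serpinb1a* encodes an inhibitor of neutrophil proteases.

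Of the genes that were lower in members, *Tagln*, *Dmkn*, *Il34* and *Pla2g7* were 2-fold lower in each gland library. *Tagln*, an actin-binding protein of contractile cells, had 2.54 and 8.94 CPM in Prepuberty and 17.4 and 18.5 in DCIS members, against 33.1 and 30.1 in Prepuberty and 66.6 and 47.8 in DCIS in the other cells. *Il34*, a ligand of the CSF1 receptor, had 12.1 and 2.38 CPM in Prepuberty and 8.71 and 2.99 in DCIS members, against 38.4 and 6.70 in Prepuberty and 48.4 and 19.4 in DCIS. The mean log2 ratio was -2.03 for *Tagln*, -1.87 for *Il34*, -2.27 for the IGF-binding protein gene *Igfbp2*, -1.94 for *Dmkn* and -1.56 for *Pla2g7*. Several of these were highest in the classes that the rule leaves out: in DCIS 1, *Igfbp2* had 1556 CPM in matrix cells against 48.5 in members, and *Dmkn* had 84.8 CPM in adventitial cells against 11.2. The heat shock gene *Hspb1* was also lower, with a mean log2 ratio of -1.16.

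**Figure D3:**
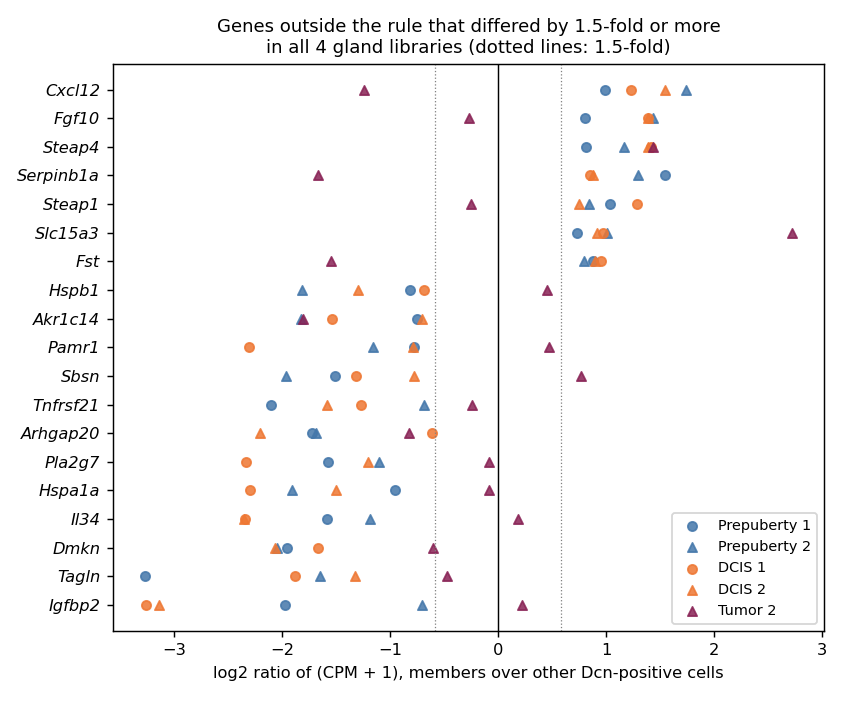
Log2 ratio of members to the other *Dcn*-positive cells for the genes at least 1.5-fold apart in all 4 gland libraries that were named, with 1 point per library. *Cxcl12* lies between 0.99 and 1.74 in the gland libraries and *Igfbp2*, *Tagln*, *Dmkn* and *Il34* have the lowest means.

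The partners of the genes in the label were compared in the same way. *Ch25h*, which encodes the enzyme that makes the 25-hydroxycholesterol that CYP7B1 breaks down, had 75.3 and 83.7 CPM in Prepuberty and 65.9 and 80.2 in DCIS members, against 57.1 and 43.9 in Prepuberty and 35.6 and 27.7 in DCIS in the other cells, a mean log2 ratio of 0.92. *Apoe*, a lipid carrier, had a mean log2 ratio of 0.84. *Il1rl1*, the receptor for IL-33, had 517 and 315 CPM in Prepuberty and 664 and 377 in DCIS members, against 753 and 798 in Prepuberty and 653 and 637 in DCIS. It was lower in members in 3 of the 4 gland libraries, and the mean log2 ratio was -0.65.

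The genes whose levels followed *Il33* most closely were found over 22 sums of *Dcn*-positive cells, split by library and by class (members, adventitial, matrix and remaining cells). Members were picked by *Il33* and the other markers, so that the variation of *Il33* over these sums is partly set by the rule and the ranking is a description. With the genes of the rule left out of the ranking, the 8 with the highest Pearson r of log2(CPM + 1) were *Serpinb1a* (0.855), *C2* (0.847), *Ugcg* (0.837), *Abi3bp* (0.834), *Entpd2* (0.820), *Zfp36* (0.802), *Slit3* (0.8) and *Serping1* (0.8). *C2* and *Serping1* encode a complement component and the C1 inhibitor, and *Zfp36* encodes a protein that destabilizes cytokine mRNAs. Sums of 1 library also share that library's handling and depth. Over the 15 gland sums alone, r was between 0.617 (*Slit3*) and 0.861 (*Serpinb1a*) for the 8 genes.

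Between Prepuberty and DCIS, *Sfrp4*, *Il6* and the stress genes *Atf3* and *Hspb1* rose in members, and *Id1*, *Snai1* and *Gdf10* fell. Of 10023 genes tested by edgeR's quasi-likelihood test on the summed counts of the 5 libraries with 10 or more members, 64 (0.639%) passed an adjusted p of 0.05, 53 of them higher (0.529%) and 11 lower (0.11%) in DCIS. The count includes 2 genes of the rule, *Il33* and *Crabp1*, which are not results. At an unadjusted p under 0.05, 1401 genes passed, and the 2 states did not overlap in 4971 genes (49.6%). In sums over members, fewer cells with a transcript and less of it per cell cannot be told apart. The member sums held 3544456 and 3357445 UMIs in Prepuberty and 804115 and 1671551 in DCIS.

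The count of 64 changed when single libraries were left out. Leaving out a gland library left a lone library in its state, which was assumed to vary like the others. Such counts describe how far the result rests on each library and are not replicated tests. Without DCIS 1 the edgeR fit called 0 genes (572 at an unadjusted p under 0.05), so that none of the 31 genes that the naming rule chose for this contrast passed, without DCIS 2 it called 20, without Prepuberty 1 it called 373, without Prepuberty 2 it called 106, and with the 8 members of Tumor 1 added to the fit it called 1 gene. With the replicate number as a block it called 192 and without a filter on low counts 435, with cells thinned to 4000 UMIs 19 (18 higher and 1 lower), without cells that held T antigen UMIs 60, and DESeq2 called 91. Of the genes chosen by the naming rule, 11 of the 27 that could be fitted passed with thinned cells, and 19 of 29 passed with 4 or more markers.

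Among the genes with the largest rise, *Sfrp4*, a secreted frizzled-related modulator of Wnt signalling, had 10.4 and 7.74 CPM in the Prepuberty libraries and 183 and 101 in the DCIS libraries. *Mmp10*, which encodes the matrix protease stromelysin-2, had 0.846 and 0.596 CPM in the Prepuberty libraries and 33.6 and 12.6 in the DCIS libraries. In both genes the 2 DCIS libraries lay above both Prepuberty libraries, which the naming rule required. The log2 fold change was 4.13 ± 0.42 for *Sfrp4* (edgeR adjusted p = 0.00187) and 5.01 ± 0.71 for *Mmp10* (0.00707). With thinned cells *Mmp10* differed by 2.66 and did not pass.

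Other genes that rose included *Atf3*, *Foxc1* and *Rnd1*. *Atf3*, a stress-induced transcription factor, had 4.80 and 4.47 CPM in the Prepuberty libraries and 44.8 and 39.5 in the DCIS libraries, and *Foxc1*, a forkhead transcription factor, had 1.13 and 0.894 CPM in the Prepuberty libraries and 13.7 and 7.78 in the DCIS libraries. *Rnd1*, a small GTPase gene, had 6.77 and 17 CPM in the Prepuberty libraries and 108 and 76 in the DCIS libraries. The naming rule required that the 2 states did not overlap, as they did not in 49.6% of all genes tested. The log2 fold change was 3.35 ± 0.42 for *Atf3* (edgeR adjusted p = 0.00438), 3.44 ± 0.63 for *Foxc1* (0.0302) and 3.17 ± 0.43 for *Rnd1* (0.00707). *Ankrd33b* rose by 3.79, *Parm1* by 3.45 and *Usp53* by 3.08 on the log2 scale, with edgeR adjusted p of 0.00648, 0.0452 and 0.0106. Of the alternative settings that gave a value, *Foxc1* passed in 9 of 14, *Parm1* in 8 of 13, *Usp53* in 11 of 15 and *Ankrd33b* in 13 of 16. With thinned cells *Usp53* was at 2.68 and did not pass, and *Foxc1* and *Parm1* could not be fitted.

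The genes that fell included *Id1*, *Snai1* and *Cited2*. *Id1*, a BMP-responsive inhibitor of helix-loop-helix transcription factors, had 164 and 256 CPM in the Prepuberty libraries and 4.97 and 17.3 in the DCIS libraries. *Snai1*, a transcriptional repressor known for epithelial-mesenchymal transition, had 81 and 84.3 CPM in the Prepuberty libraries and 9.95 and 12.6 in the DCIS libraries. *Cited2*, a regulator that binds CBP and p300, had 52.5 and 69.7 CPM in the Prepuberty libraries and 6.22 and 8.38 in the DCIS libraries. Both DCIS libraries lay below both Prepuberty libraries in all 3, which the naming rule required. The log2 fold change was -3.90 ± 0.45 for *Id1* (edgeR adjusted p = 0.00439), -2.66 ± 0.35 for *Snai1* (0.00439) and -2.82 ± 0.40 for *Cited2* (0.00655). With thinned cells *Id1* passed, at -3.29, whereas *Snai1*, at -2.35, and *Cited2*, at -2.47, did not.

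*Gdf10*, a secreted factor of the TGF-beta superfamily, had 18.9 and 29.8 CPM in the Prepuberty libraries and 0 and 1.20 in the DCIS libraries. The DCIS members held 2 UMIs of it against 167 in Prepuberty, a ratio of 30.0 with an exact counting interval of 8.16 to 249, and the edgeR adjusted p was 0.0123. *Nqo2*, a quinone reductase gene, had 3 UMIs in DCIS against 168, a ratio of 20.1 (6.76 to 98.4), with an edgeR adjusted p of 0.0184. *Tmem119* (-3.47), *Fam212a* (-2.64), *Mycbp* (-2.57) and *Isyna1* (-1.81), the last of which encodes the enzyme that makes inositol phosphate from glucose 6-phosphate, fell as well, with edgeR adjusted p between 0.0302 and 0.0437. With thinned cells *Gdf10*, *Nqo2*, *Isyna1* and *Tmem119* did not pass, the last at -1.13, and *Fam212a* and *Mycbp* could not be fitted. The imprinted noncoding RNA *H19* had 50 UMIs in Prepuberty and none in DCIS members, at least 5.98-fold lower against a floor of 3 counts over the group.

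**Figure D4:**
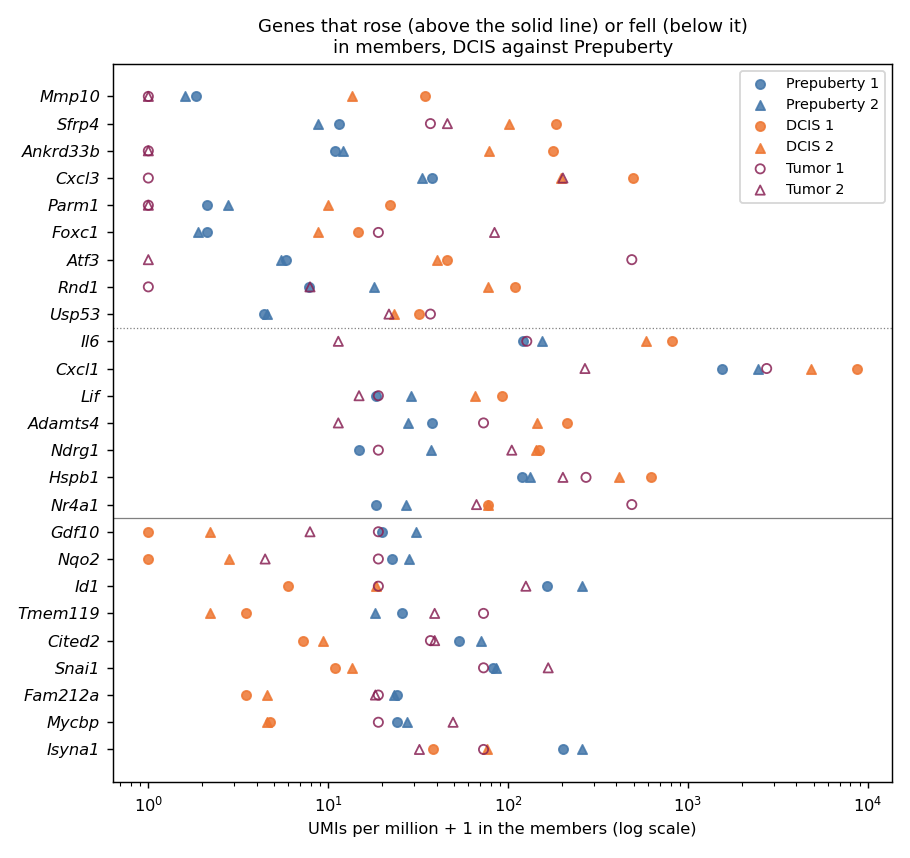
Level of the named genes that rose or fell between Prepuberty and DCIS in the members of each library, as CPM + 1 on a log axis, with 1 point per library, coloured by state. *Sfrp4* lies at 10.4 and 7.74 CPM in Prepuberty and 183 and 101 in DCIS, and *Id1* at 164 and 256 against 4.97 and 17.3.

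In the list of cytokines, chemokines and alarmin partners, 3 of 32 tested genes rose, 0 fell and 29 did not pass. Of all genes tested, 0.529% rose. The median log2 fold change of the list was 0.52 in members and 0.48 in the other *Dcn*-positive cells, against -0.03 over all genes in members. The 3 that rose were *Il6*, *Lif* and *Cxcl1*. *Il6*, a cytokine of acute inflammation, had 119.6 and 153 CPM in Prepuberty, 811 and 583 in DCIS and 126 and 10.4 in Tumor. *Lif*, a cytokine of the same family, had 17.5 and 28 CPM in Prepuberty, 92 and 64.6 in DCIS and 18 and 13.8 in Tumor. *Cxcl1*, a neutrophil chemokine, had 1547 and 2463 CPM in Prepuberty, 8697 and 4853 in DCIS and 2736 and 266 in Tumor. In all 3 the DCIS libraries were the highest and the 2 Prepuberty libraries lay below both of them, beside 49.6% of all genes without overlap. The log2 fold change was 2.56 ± 0.31 for *Il6* (edgeR adjusted p = 0.00438), 1.98 ± 0.36 for *Lif* (0.029) and 1.98 ± 0.37 for *Cxcl1* (0.0384). *Cxcl3*, a chemokine of the same kind, rose by 3.52 ± 0.50 (0.0364 by edgeR), from 36.7 and 32.2 to 491 and 196 CPM. *Cxcl3* passed in 9 of 16 alternative settings, and its log2 fold change was 1.12 with thinned cells and 1.97 with 4 or more markers, neither of which passed. *Cxcl1* passed in 10 of the 16 and *Lif* in 11. *Ccl2*, a monocyte chemokine among the most abundant transcripts of members, overlapped between the states, at 11364 and 12193 CPM in Prepuberty and 18236 and 7699 in DCIS. The sum of macrophage markers was higher in DCIS than in Prepuberty members, as given above, and its part in this result was not tested.

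The promoters of the 3 cytokine genes are shown because these genes rose together. Each runs from 250 bases before to 50 after the RefSeq start (GRCm38.p6), on the plus strand, and capitals mark matches to AP-1 (TGANTCA) or NF-kB (GGGA and TTCC with 2 bases between) on either strand. The *Il6* window is chr5:30012864-30013163, that of *Lif* is chr11:4257318-4257617 and that of *Cxcl1* is chr5:90890995-90891294.
Il6: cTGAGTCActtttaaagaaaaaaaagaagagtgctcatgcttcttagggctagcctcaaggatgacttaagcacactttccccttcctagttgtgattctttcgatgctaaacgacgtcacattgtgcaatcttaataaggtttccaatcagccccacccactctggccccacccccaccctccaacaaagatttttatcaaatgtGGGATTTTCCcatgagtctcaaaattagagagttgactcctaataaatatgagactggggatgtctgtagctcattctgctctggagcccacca
Lif: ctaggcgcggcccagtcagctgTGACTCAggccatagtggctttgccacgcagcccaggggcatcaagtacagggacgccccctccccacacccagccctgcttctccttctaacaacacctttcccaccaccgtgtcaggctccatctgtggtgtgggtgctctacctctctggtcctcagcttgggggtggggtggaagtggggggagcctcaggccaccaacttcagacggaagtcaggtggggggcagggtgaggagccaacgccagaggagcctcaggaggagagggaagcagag
Cxcl1: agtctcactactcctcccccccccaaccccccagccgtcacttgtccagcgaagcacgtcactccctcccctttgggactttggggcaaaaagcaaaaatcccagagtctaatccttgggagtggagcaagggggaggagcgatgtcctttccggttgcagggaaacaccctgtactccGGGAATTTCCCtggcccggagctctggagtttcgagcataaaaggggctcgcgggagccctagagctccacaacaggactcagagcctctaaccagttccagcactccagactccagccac

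*Il6* held 1 match to AP-1 and 1 to NF-kB, *Lif* held 1 to AP-1 and *Cxcl1* held 2 overlapping matches to NF-kB, 1 on each strand. AP-1 letters occur in 7.81% and NF-kB letters in 1.47% of 32851 promoters of this length. The same search found neither motif at either start of *Il33* or in *Fgf7*, *Cpxm1* and *Tmem45a*, which says only that these letters are not in the windows.

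Among the immediate early and heat shock genes, 5 of 25 rose, 0 fell and 20 did not pass, beside 0.529% of all genes tested that rose. The median of the list was 0.80 in members and 0.67 in the other *Dcn*-positive cells, against -0.03 over all genes in members. Beside *Atf3*, they were the chaperone genes *Hspa1b* (2.63 ± 0.40, edgeR adjusted p = 0.0109), *Hspb1* (2.27 ± 0.32, 0.00648) and *Dnajb1* (1.65 ± 0.29, 0.0267) and the nuclear receptor gene *Nr4a1* (2.01 ± 0.33, 0.0158). *Hspb1* had 118 and 131 CPM in the Prepuberty libraries and 626 and 415 in the DCIS libraries, and *Nr4a1* had 17.5 and 25.9 CPM in the Prepuberty libraries and 75.9 and 76.6 in the DCIS libraries. Both genes were higher in each DCIS library than in each Prepuberty library, beside 49.6% of all genes without overlap. With thinned cells the log2 fold change of *Nr4a1* was 0.47 and it did not pass, and *Hspb1*, at 3.17, did not pass either. *Fos* overlapped between the states, at 93.4 and 312 CPM in Prepuberty and 236 and 85 in DCIS.

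Among complement genes, 2 of 11 rose, 0 fell and 9 did not pass, beside 0.529% of all genes tested that rose. The median of 1.21 was the highest of the 18 lists. *C4b*, a component of the classical pathway, had 32.2 and 68.8 CPM in the Prepuberty libraries and 213 and 139 in the DCIS libraries. It had a log2 fold change of 2.02 ± 0.38 (edgeR adjusted p = 0.0482). The gene passed in 7 of 16 alternative settings, and with the replicate block its edgeR adjusted p was 0.0551, with a range of 3.88e-07 to 0.748 over the alternatives. *Serping1* had 973 and 975 CPM in the Prepuberty libraries and 2307 and 1874 in the DCIS libraries and an adjusted p of 0.0821 by edgeR. The median of the complement list in the other *Dcn*-positive cells was 1.42, in a fit in which no gene passed.

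The lists of matrix genes are read beside the 0.529% of all genes that rose and the median of -0.03 over all genes. Of 24 proteases and inhibitors, 2 rose (*Mmp10* and the aggrecanase gene *Adamts4*), 0 fell and 22 did not pass, with a median of 0.71. *Adamts4* had 37 and 26.8 CPM in the Prepuberty libraries and 210.2 and 144 in the DCIS libraries, a log2 fold change of 2.65 ± 0.35 (edgeR adjusted p = 0.00439). Of 24 genes for fibrillar collagens and their maturation, 1 rose, 0 fell and 23 did not pass, with a median of 0.32. That gene was *Lox*, which encodes the crosslinking enzyme lysyl oxidase, with 37.2 and 27.1 CPM in the Prepuberty libraries and 85.8 and 82.6 in the DCIS libraries and an edgeR adjusted p of 0.0497. Its log2 fold change was 1.56 ± 0.32, it passed in 6 of 16 alternative settings, and with thinned cells the value was 0.91 and did not pass. None of 17 basement membrane genes (median 0.27), 21 matrix glycoproteins (0.28) or 16 contractile genes (0.12) passed.

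The next lists are read beside the 0.529% of all genes that rose, the 0.11% that fell and the median of -0.03. Of the growth factor genes, 0 of 22 rose and 1, *Gdf10*, fell, with a median of -0.0051. *Hgf*, the ligand of the epithelial receptor MET, had 32.7 and 12.2 CPM in the Prepuberty libraries and 14.9 and 13.8 in the DCIS libraries, and *Igf1*, a growth factor for ductal growth, had 13.3 and 38.1 CPM in the Prepuberty libraries and 87.1 and 72.4 in the DCIS libraries with an edgeR adjusted p of 0.107. Of 18 antagonists and binding proteins, 1 rose, *Sfrp4*, 0 fell and 17 did not pass, with a median of 0.82. Among 16 pan-fibroblast genes, 1 rose, 0 fell and 15 did not pass, with a median of 0.32. That gene was *Thy1*, a fibroblast surface protein, with 48.2 and 41.7 CPM in the Prepuberty libraries and 133 and 117 in the DCIS libraries and an edgeR adjusted p of 0.0302.

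The metabolic lists held 1 gene that passed, beside 0.639% of all genes tested that passed and 0.529% that rose. None of 17 genes of oxysterol and cholesterol metabolism, to which *Cyp7b1* belongs by function, passed, and the median was -0.59. *Hmgcs1*, an enzyme of cholesterol synthesis, had 31.3 and 111 CPM in the Prepuberty libraries and 18.7 and 22.1 in the DCIS libraries. The low values of both DCIS libraries lay below both Prepuberty libraries, which differed from each other by more than 3-fold, and the edgeR adjusted p was 0.289. Among glycolysis and hypoxia genes, 1 of 18 rose, *Ndrg1*, a hypoxia-responsive gene, with 13.8 and 36 CPM in the Prepuberty libraries and 147 and 142 in the DCIS libraries and an edgeR adjusted p of 0.0119. None of 16 adipogenic genes (median -0.08), 25 redox genes (0.50), 12 hormone receptors and targets (-0.13), 22 proliferation genes (0.21) or 24 interferon response genes (-0.28) passed. In the interferon list 3 of 24 log2 values were positive.

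**Figure D5:**
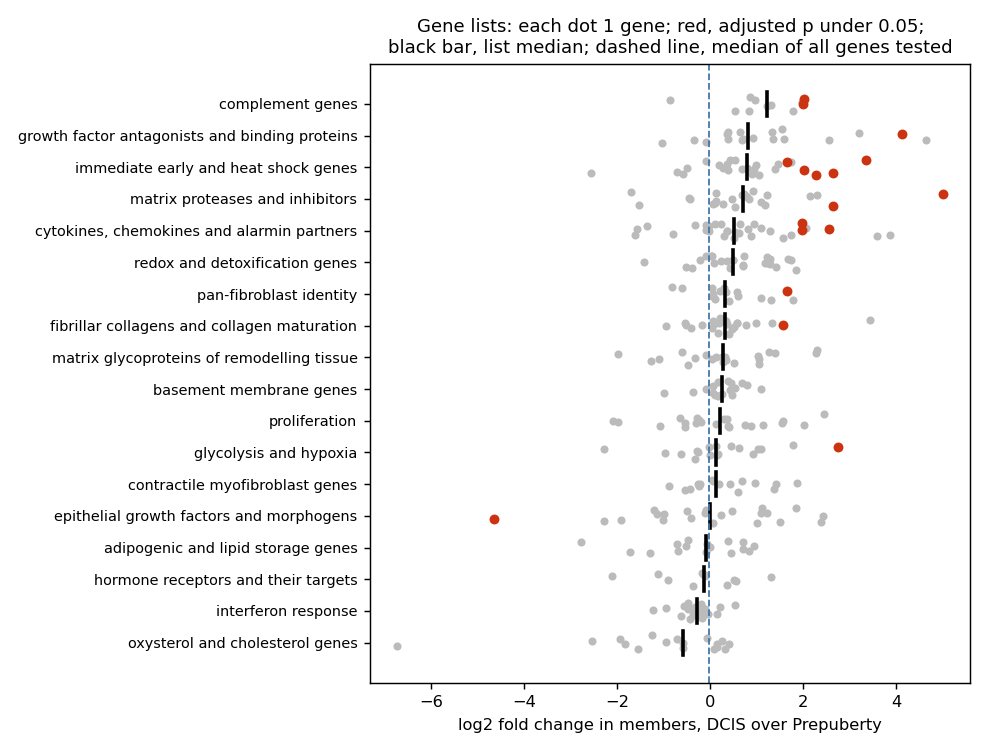
Log2 fold change between DCIS and Prepuberty in members for the tested genes of each list, with the genes that passed the threshold marked and the median of each list. The median is highest for complement genes (1.21) and lowest for oxysterol and cholesterol genes (-0.59), beside -0.03 over all 10023 genes.

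The same contrast in the other *Dcn*-positive cells called 0 of 11594 genes by edgeR, with 1372 at an unadjusted p under 0.05, and over all *Dcn*-positive cells it called 0 of 11941, with 1579. Whether the change between states differed between members and the other cells was therefore tested directly, as an interaction with the library as a block. Of 12453 genes, 18 (0.145%) passed, 8 with a more positive change in members (0.0642%) and 10 with a more negative one (0.0803%), and 584 had an unadjusted p under 0.05. Single libraries moved this count, to 102 without Prepuberty 1, 43 without Prepuberty 2, 2 without DCIS 1, 3 without DCIS 2 and 5 without Tumor 2. Without cells that held T antigen UMIs it was 10.

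*Penk*, which encodes the opioid peptide precursor proenkephalin, had 24 and 42.9 CPM in Prepuberty and 141 and 87.3 in DCIS members, against 42 and 94.3 in Prepuberty and 132 and 59.1 in DCIS in the other cells, a difference of 1.24 ± 0.22 (edgeR adjusted p = 0.00358). *Thbd*, which encodes the anticoagulant receptor thrombomodulin, had 24.8 and 73.9 CPM in Prepuberty and 62.2 and 76 in DCIS members, against 38.5 and 86.8 in Prepuberty and 31.3 and 44.6 in DCIS, a difference of 1.18 ± 0.23 (edgeR adjusted p = 0.0153). In *Thbd* the members overlapped between the states and so did the other cells, among which those of DCIS 1 lay lowest. *Penk* and *Thbd* each passed in 5 of the 14 alternative settings.

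*Lcn2*, which encodes the iron-siderophore binding protein lipocalin 2, fell in members relative to the other cells, with 93.9 and 207 CPM in Prepuberty and 29.8 and 50.3 in DCIS members, against 39.3 and 100.1 in Prepuberty and 42.1 and 73.1 in DCIS. Members were above the other cells in both Prepuberty libraries and below them in both DCIS libraries, with a difference of -1.76 ± 0.22 (edgeR adjusted p = 1.27e-05). *Wisp2*, a matricellular protein gene, had 92 and 57.5 CPM in Prepuberty and 48.5 and 20.3 in DCIS members, against 27.6 and 25.3 in Prepuberty and 60.6 and 14.6 in DCIS, a difference of -1.52 ± 0.27 (edgeR adjusted p = 0.015). *Tppp3*, a tubulin-binding protein gene known from tendon sheath and other connective tissue cells, had 14.4 and 10.1 CPM in Prepuberty and 8.71 and 12.6 in DCIS members, against 16.6 and 16.2 in Prepuberty and 81.8 and 48.8 in DCIS. The members overlapped between the states and the other cells did not, with a difference of -2.08 ± 0.35 (edgeR adjusted p = 0.00338). *Lcn2* passed in 11 of the 14 alternative settings, and *Wisp2* and *Tppp3* in 7 each. DESeq2 called neither *Wisp2* nor *Tppp3*.

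The Tumor libraries gave values with no test in the planned design, since Tumor 1 had 8 members, fewer than the 10 required. Their members differed widely from each other in the genes named next. The Wnt modulators *Sfrp1* and *Sfrp2* had 2628 and 2754 CPM in Tumor 1 but 20.8 and 0 in Tumor 2, against at most 51.0 and 22.4 in the glands. *Spp1*, which encodes osteopontin, had 108 and 5859.5 CPM in Tumor 1 and Tumor 2, against 22.0 to 269.7 in the glands, and *Col11a1*, a fibrillar collagen chain, had 36 and 699, against 0 to 1.24. The *Sfrp* genes were thus high in Tumor 1, and *Spp1* and *Col11a1* in Tumor 2. UMIs of the T antigen were found in 2 of the 8 members of Tumor 1 and in 7 of the 12 of Tumor 2, and their part in these values was not tested. The other *Dcn*-positive cells of Tumor 2 also had 8124 CPM of *Spp1*, and those of Tumor 1 had 2144.

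Some genes that were abundant in gland members were at or near 0 in both tumours. *Saa3*, an acute-phase protein gene, had 5726 and 9966 CPM in Prepuberty, 1844 and 11123 in DCIS and 0 and 6.92 in Tumor, which is 2 UMIs in Tumor against 20075 in DCIS, a ratio of 1397 with an exact counting interval of 387 to 11540 that covers counting error only. The 2 DCIS libraries differed widely in *Saa3*, and in the fit with 5 or more members described next it passed in 4 of 9 alternative settings. *Chchd10*, a mitochondrial protein gene, had 192 and 193 CPM in Prepuberty and 449 and 582 in DCIS and no UMI in Tumor, at least 61.9-fold lower than in DCIS. The granulocyte factor gene *Csf3* had no UMI in Tumor members, at least 27.2-fold lower than in DCIS. *H19* went the other way, with 270.0 and 564 CPM in Tumor and no UMI in DCIS, at least 426-fold higher. For comparison, the other *Dcn*-positive cells had 29.3 and 42.6 CPM of *Saa3*, 3.38 and 3.13 of *Chchd10* and 93.5 and 375 of *H19* in the Tumor libraries.

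With the limit lowered to 5 members, so that Tumor 1 entered, edgeR called 430 of 8352 genes (5.15%) between Tumor and DCIS, 156 higher (1.87%) and 274 lower (3.28%). It called 185 (2.22%) between Tumor and Prepuberty, 99 higher (1.19%) and 86 lower (1.03%). Without cells that held T antigen UMIs the split was 89 higher and 252 lower against DCIS, and 82 higher and 114 lower against Prepuberty. These fits were added after the data were seen and rest on 20 cells. Where a library of a compared state was left out, the lone library left in that state was assumed to vary like the others. Such counts describe how far the result rests on each library and are not replicated tests. The count for Tumor against DCIS was 60 without DCIS 2, 176 without Tumor 2, 1174 without Tumor 1 and 341 without cells that held T antigen UMIs. For Tumor against Prepuberty it was 115 without Prepuberty 1, 429 without DCIS 1 and 828 without Tumor 1.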

How the data were processed

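Per the labels, the authors prepared each library by 10x Genomics 3′ chemistry. Their processing notes name Cell Ranger 3.0.2 and mm10, and the deposited matrices are unnormalized UMI counts, with the SV40 large T antigen among the features. Members, lists and tests were chosen with earlier results of these data known. UMI counts were summed over the members of each library (55565 to 3544456 UMIs), genes with low counts were removed with filterByExpr, and states were compared with edgeR 4.0.16 in R 4.3.3 (TMM, robust quasi-likelihood test, Benjamini-Hochberg, threshold 0.05) over libraries with 10 or more members. Tumor 1, with 8, was left out of that fit. The interaction compared members with the other *Dcn*-positive cells, with the library as a block. Those of the 20 genes of the rule that passed the filter stayed in the fit over all genes, and no test of them in members is given as a result. Named genes were the 10 with the largest log2 fold change in each direction among those past the threshold, without overlap of the states and with at least 10 CPM in the higher state, plus up to 4 per list. Doublets were scored with the Scrublet of scanpy 1.11.5, and the highest scores were removed only as an alternative. Free RNA was not subtracted. Alternatives were DESeq2 1.42.0, its size factors, no filter, 4 markers, thinning to 4000 UMIs, a mitochondrial limit of 5%, removal of cells with T antigen UMIs, the replicate block and each library left out. Where the library left out belonged to a compared state, the lone library left in that state was assumed to vary like the others. Gene positions are from GENCODE on GRCm38 and promoters from RefSeq. *Aldoa* and *Ccl19* of the lists were not found by symbol. Some genes are not reported here.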

Additional observations from a re-analysis of the deposited data

Results flagged for a closer look

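In the 9 genes given here the change from Prepuberty to DCIS in members differed from that in the other *Dcn*-positive cells, by the interaction term of the edgeR fit. The log2 differences of the changes were -6.38 for *Reg3g*, 5.13 for *Gatm*, -2.08 for *Tppp3*, -1.76 for *Lcn2*, -1.52 for *Wisp2*, -1.34 for *Tmem176a*, -1.30 for *Tmem176b*, 1.24 for *Penk* and 1.18 for *Thbd*. Of 14 alternative settings, *Reg3g* passed in 12, *Lcn2* in 11, *Gatm* in 8, *Tppp3*, *Wisp2* and *Tmem176b* in 7 each, and *Tmem176a*, *Penk* and *Thbd* in 5 each. The direction turned with thinned cells in *Reg3g* (1.51), *Tmem176a* (0.258) and *Tmem176b* (0.00339), and in *Gatm* with 4 or more markers (-4.41) and without DCIS 2 (-2.88). *Reg3g* had 16.6 and 2.68 CPM in Prepuberty and 23.6 and 2.99 in DCIS members, against 1.15 and 0.154, and 143 and 12, in the other cells, so that replicate 1 was above replicate 2 in each state and class. *Gatm* had 0 CPM in the members of DCIS 1 and 20.9 in those of DCIS 2, and its value rests on that 1 library. The adjusted p was 1.26e-11 for *Reg3g* and 0.00116 for *Gatm* by edgeR.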

How the results depend on the processing

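The count of member genes between DCIS and Prepuberty (64) became 435 without the filter, 19 with thinned cells, 192 with the replicate block, 1 with libraries of 5 or more members (751 at an unadjusted p under 0.05 by edgeR), and 0 to 373 with each library left out. It stayed within 1.5 times under 7 other settings (45 to 91). Deviations of libraries with the same replicate number correlated at r = 0.149 over 10023 genes, with only 2 such pairs, so the numbers were not taken as pairs. The interaction count (18) became 70 without the filter, 4 with DESeq2, 4 with 4 markers, 10 with thinned cells, 10 without T antigen cells, 3 at the 5% mitochondrial limit, 49 with 5 or more members and 2 to 102 with each library left out. *Reg3g* turned to 1.51, *Tmem176a* to 0.258 and *Tmem176b* to 0.00339 with thinned cells, and *Gatm* turned to -4.41 with 4 markers and -2.88 without DCIS 2, within -2.88 to 5.42 with each library left out. Tumor against DCIS (430) ranged over 60 to 1174 with each library left out, and Tumor against Prepuberty (185) over 115 to 828, with 307 by DESeq2 and 385 with the replicate block. The cause of these shifts was not tested. Of the 31 member genes that the naming rule chose none reversed. Thinned shares were 6.51%, 10.2%, 12.1% and 1.42% for Prepuberty 1, Prepuberty 2, DCIS 2 and Tumor 2, and with 4 markers the 6 shares were 4.89%, 6.74%, 7.51%, 5.73%, 3.19% and 0.901%. Genes higher in members than in the other *Dcn*-positive cells (0) became 4 with 4 markers, 1 with thinned cells and 7 at 1.5-fold in the glands, and genes lower (0) became 10, 7 and 21, with 4 at 2-fold in the glands. With 8 and 12 members, the Tumor libraries limit every statement on that state, and a gene at 0 there was not detected at this depth.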
